A study of Rattus norvegicus with 13 samples.

Results

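Gene expression in the left ventricle of pregnant rats given methionine was compared with that of pregnant control rats over the probe sets that read a single named gene at a well-measured level. A probe set is the group of short probes on the array that together read 1 transcript, mostly near its 3′ end. It was kept when the annotation gave it 1 gene symbol and its mean log2 signal over all 13 arrays of the series was at least the median of all 31042 probe sets tested, which was 4.87 on the log2 scale or a signal of 29.2. This left 11936 probe sets of 31042, which read 9393 genes, and 1988 of these genes had several such probe sets. Of the 15521 probe sets that bright, 298 carried several symbols and 3287 none, and 8890 probe sets with a single symbol were dimmer. The probe sets just inside the limit read Zmynd10, Syndig1 and Srrm1 and those just outside read Orc5, Zc3h13 and Icam2, all at a mean log2 signal of 4.87 after rounding.

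All rats were female Sprague Dawley rats, mated and pregnant, and their age was not given. Drinking water held L-methionine at 9 g/L in the methionine-fed group (Met-fed, 4 arrays) and neither methionine nor L-NAME in the control group (5 arrays), over days 1 to 20 of gestation, and hearts were taken on day 20 or 21 under sodium pentobarbital in every group. In addition, 4 arrays of rats given L-NAME, an inhibitor of nitric oxide synthesis, at 1 g/L entered the model for the shared estimate of spread and are not described. The study's text describes repeated pregnancies and 4 control arrays, while the labels mention no parity and give 5 control arrays, all of which were used. The days of dosing and harvest above are those of the labels. In the study's text the methionine water instead ran from the first pregnancy until the rats were killed, and the range of harvest days is wider. The labels number the arrays without naming the rats, so p-values measure only the spread between these samples. The tissue was whole ventricle, where fewer cells of a type and less RNA per cell cannot be told apart.

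Methionine is the dietary source of homocysteine, an amino acid whose excess in plasma is associated with vascular and cardiac disease, and feeding methionine is a common way to raise it. Proteins that enter the secretory pathway fold in the endoplasmic reticulum with the help of chaperones and disulfide isomerases, and a load of unfolded protein there switches on a transcriptional programme, the unfolded protein response, through the sensors Atf6, Ire1 and Perk. The heart also carries a circadian clock, in which Clock and Bmal1 drive their own repressors, and an endothelium that depends on VEGF receptors and nitric oxide.

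The 9 arrays differed in ways that bear on every count below. Met-fed arrays 1 and 4 had a median signal over all probe sets of 29.2 and 29.0, above the other Met-fed arrays (26.8 and 25.8) and all control arrays (25.7 to 27.2). Over the well-measured probe sets the same 2 arrays had a narrower spread of log2 signal, with interquartile ranges of 2.51 and 2.52 against 2.62 to 2.66 on the 7 other arrays. The mean log2 signal of 18 spike-in control probe sets was 10.32 ± 0.10 (SD, n = 5) on control and 10.14 ± 0.13 (SD, n = 4) on Met-fed arrays (exact permutation test, 2-sided, p = 0.0556, adjusted p = 0.159 over 5 array measures). The ratios of 3′ to 5′ signal of beta-actin and GAPDH, measures of RNA quality and labelling, gave p = 0.611 and p = 0.492 by the same exact test. Markers of the ventricle were well measured, with 18 of 20 cardiomyocyte markers among these probe sets and Mb, Myh6 and Tnnt2 the brightest of them. Their summed linear signal spanned 58312 to 64073 on control and 51532 to 65865 on Met-fed arrays.

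Log2 signals were compared with limma, and p-values were adjusted over all 31042 probe sets. No probe set passed an adjusted p of 0.05, and the smallest adjusted p of a well-measured one was 0.13. Genes are therefore described at an unadjusted p under 0.05, which is named as such, and "higher" and "lower" mean the Met-fed against the control mean. At that threshold 979 well-measured probe sets were higher and 581 lower, which is 8.2% and 4.87% of the 11936, against 5.72% and 4.97% of all 31042 and 4.17% and 5.04% of the 19106 others. The excess of higher probe sets depended on how the arrays were scaled. With every array shifted to a common median the counts were 594 higher and 898 lower, so the higher share of these probe sets went from 62.8% to 39.8%. Without Met-fed arrays 1 and 4 the counts were 554 and 582, and without Met-fed array 1 alone they were 566 and 451. The median log2 difference of the well-measured probe sets was 0.03 as deposited and -0.03 after centring.

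In most of these probe sets the difference was small. The 5th and the 95th percentile of the log2 difference were -0.31 and 0.39, 97.9% differed by less than 1.5-fold, and the median standard error was 0.14 against 0.46 in the other probe sets. In 224 probe sets (1.88%) every Met-fed array lay above every control array, and in 192 (1.61%) every one lay below, against 1.34% and 1.55% of all probe sets. A difference of over 1.5-fold at an unadjusted p under 0.05 was found in 126 higher (1.06%) and 65 lower (0.545%) probe sets. The same share was not counted over all probe sets, so these 2 have no background beside them. Shares differed with brightness. Among the 2984 dimmest well-measured probe sets 7.54% were higher and 2.71% lower, and among the 2984 brightest 5.56% were higher and 7.07% lower, with median differences of 0.07 and -0.02. The signal limit is on a mean that includes the Met-fed arrays, so near it a higher Met-fed signal helps a probe set in. In 426 of the 11936 the control mean was under the limit, and of these 64 were higher and none lower. Of the 11424 with both means at or over the limit 8.01% were higher and 4.9% lower.

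**Figure D1:**
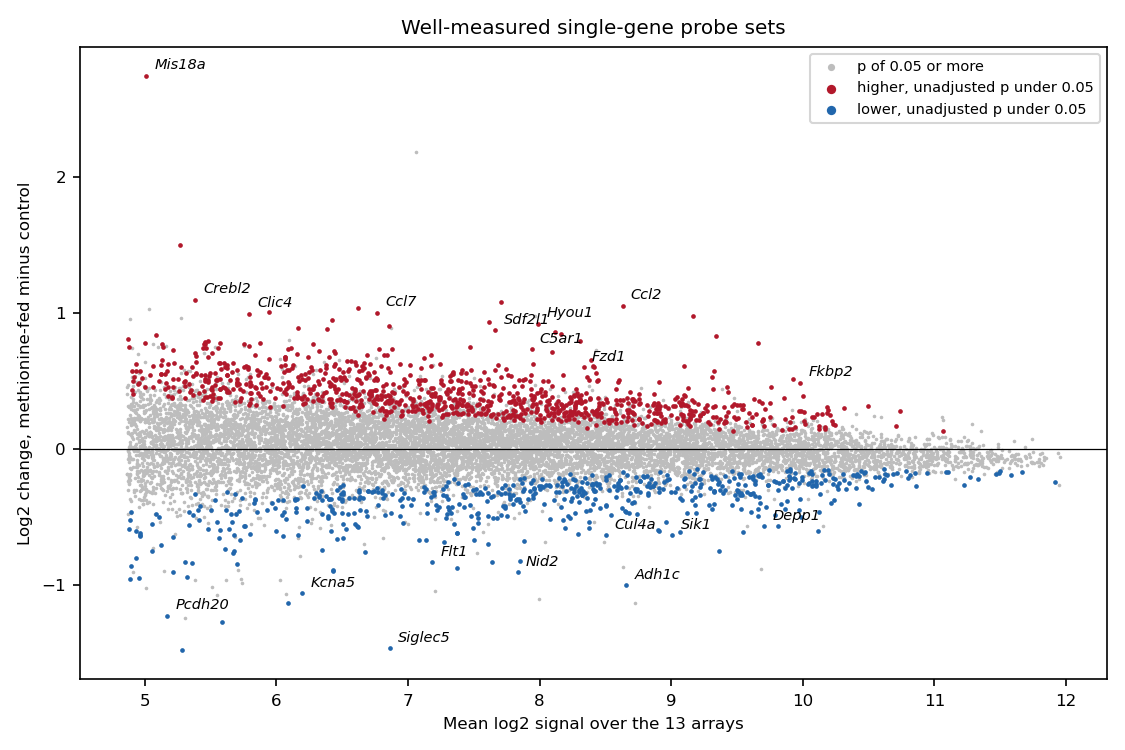
Log2 difference between Met-fed and control means (vertical axis) against the mean log2 signal (horizontal axis) of the 11936 well-measured probe sets, 1 point each, with those at an unadjusted p under 0.05 coloured by direction and some named genes labelled. Points spread less toward the bright end, and more of the coloured points lie above 0 (979) than below (581).

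Other probe sets of the same gene were read on the same arrays and are no independent replicates. Among genes with several well-measured probe sets, the brightest was higher at an unadjusted p under 0.05 in 150, and 148 of their 177 other probe sets (83.6%) had the same sign, where 55.8% of all well-measured probe sets were above 0. At an unadjusted p under 0.05, 40 of the 177 were higher and 3 lower. For the 140 genes whose brightest probe set was lower, 95 of 185 others (51.4%) had the same sign, 17 were lower and 7 higher. Of the 15 genes with the largest higher difference (groups without overlap, unadjusted p under 0.01), 8 had 11 other well-measured probe sets. All 11 were brighter on control arrays, their differences spanned -0.05 to 0.14, and none reached an unadjusted p under 0.05.

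Among those 15 genes, Crebl2, a bZIP transcription factor gene, had a log2 difference of 1.10 ± 0.25 (SE, as for all differences below, n = 4 Met-fed and 5 control arrays). Its log2 signals were 4.39, 5.05, 4.08, 4.62 and 3.62 on control and 5.26, 5.25, 5.77 and 5.52 on Met-fed arrays, while its other probe set, brighter at a control mean of 8.17, differed by 0.02 ± 0.10. Clic4, an intracellular chloride channel protein, followed the same pattern, with 1.00 ± 0.17 in one probe set and 0.14 ± 0.12 and 0.06 ± 0.07 in 2 brighter ones. The same holds for Bdnf, a neurotrophin (1.01 ± 0.20 against -0.03 ± 0.18), and Antxr2, an anthrax toxin receptor (0.71 ± 0.19 against 0.14 ± 0.13). Nipbl, the cohesin loader (0.80 ± 0.26), Cstf3, a subunit of the factor that cleaves pre-mRNA for polyadenylation (0.75 ± 0.20), and Nucks1, a nuclear phosphoprotein (0.68 ± 0.18), were likewise carried by a dim probe set beside brighter ones between -0.05 and 0.13. Mrpl52, a mitochondrial ribosomal protein, gave 0.84 ± 0.24 in one probe set and 0.05 ± 0.14 in the other, but neither was dim. Their control means were 8.91 and 9.00 and their Met-fed means 9.75 and 9.06. The control means of these probe sets of Crebl2 (4.35), Antxr2 (4.6) and Nipbl (4.77) were under the signal limit, which they met through other arrays. The probe sets of such a gene read different stretches of its transcripts, and the part that transcript ends play was not tested.

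C5ar1, the receptor for the complement fragment C5a, was read by 1 well-measured probe set. Its log2 signals were 7.25, 7.11, 6.83, 7.12 and 7.40 on control and 8.19, 7.64, 7.70 and 7.99 on Met-fed arrays, a difference of 0.74 ± 0.14 (unadjusted p = 8.64e-05). All Met-fed arrays were above all control arrays, and arrays 1 and 4 were the highest. Single probe sets also gave the differences of Amigo3, a leucine-rich repeat adhesion protein (0.74 ± 0.24), and C13h2orf76, an open reading frame of unassigned function (0.70 ± 0.14). The adjusted p of the 30 genes with the largest differences in both directions was 0.13 to 0.33.

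**Figure D2:**
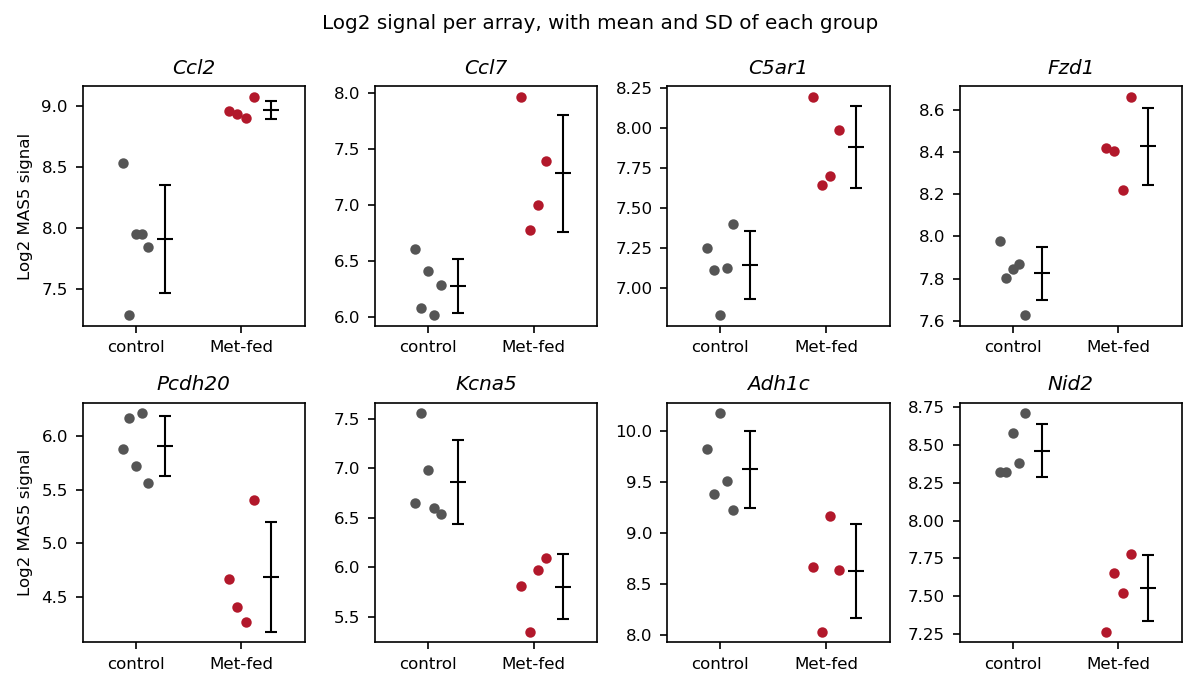
Log2 signal (vertical axis) of 8 genes on the 5 control and 4 Met-fed arrays, 1 point per array with bars for the group mean and SD. In each of the 8 genes the groups do not overlap, with Ccl2, Ccl7, C5ar1 and Fzd1 higher and Pcdh20, Kcna5, Adh1c and Nid2 lower on Met-fed arrays.

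On the lower side the largest difference without overlap was that of Pcdh20, a protocadherin of cell adhesion. Its log2 signals were 5.89, 6.17, 5.72, 6.21 and 5.56 on control and 4.67, 4.40, 4.27 and 5.41 on Met-fed arrays, a difference of -1.22 ± 0.24. Its second, brighter probe set was lower too (-0.90 ± 0.26, unadjusted p under 0.05). Of the 15 genes with the largest lower differences 4 had 7 other well-measured probe sets, of which 3 had lower signals by that unadjusted threshold and 1 had higher ones.

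Fam181b, of unassigned function, was at 4.98 to 5.85 on control and 4.21 to 4.73 on Met-fed arrays, with a difference of -0.95 ± 0.20. Sik1, a salt-inducible kinase, had log2 signals of 8.81, 9.59, 8.97, 9.05 and 9.23 on control and 8.33, 8.37, 8.73 and 8.55 on Met-fed arrays, a difference of -0.63 ± 0.15. All Met-fed arrays of Sik1 lay below every control array, and control array 2 was the highest of the 9. Cul4a, a scaffold of ubiquitin ligases, was at 8.63 to 9.09 on control and 8.11 to 8.37 on Met-fed arrays without overlap (-0.63 ± 0.11). Stau2, which binds RNA for transport, was lower in 2 of its 4 probe sets (-0.60 ± 0.15 and -0.52 ± 0.15), higher in the dimmest (0.61 ± 0.18) and at 0.07 ± 0.10 in the last. Enc1, an actin-binding protein, was lower in 2 of 3 probe sets at an unadjusted p under 0.05 (-0.83 ± 0.20 and -0.75 ± 0.30, with -0.42 ± 0.25 in the last).

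Lower signals without overlap were also found for Arid3b, a DNA-binding protein (-0.76 ± 0.21), Dclre1b, a nuclease that protects telomeres (-0.75 ± 0.16), Pip4p1, a phosphoinositide phosphatase of lysosomes (-0.67 ± 0.16), and Pla2g6, a calcium-independent phospholipase A2 (-0.63 ± 0.17). Ctse, the aspartic protease cathepsin E, had -0.84 ± 0.22. Nid2, a basement membrane protein that binds laminin, was at 8.32 to 8.71 on control and 7.27 to 7.78 on Met-fed arrays. Adh1c, an alcohol dehydrogenase, was at 9.23 to 10.18 on control and 8.03 to 9.16 on Met-fed arrays, with Met-fed array 2 the lowest of the 9.

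The probe set with the smallest p was that of Fzd1, a receptor of Wnt ligands. Its log2 signals were 7.98, 7.80, 7.85, 7.87 and 7.63 on control and 8.42, 8.40, 8.22 and 8.66 on Met-fed arrays, a difference of 0.60 ± 0.10 (unadjusted p = 1.92e-05). Itga7, the laminin-binding integrin subunit of muscle, was higher in 3 of 3 well-measured probe sets (0.65 ± 0.14, 0.36 ± 0.13 and 0.36 ± 0.16). Pkhd1l1, a fibrocystin-like membrane protein, was higher by 0.71 ± 0.15. Rtn4, the reticulon known as Nogo, gave 0.50 ± 0.10 in one probe set and -0.05 ± 0.07 in the brighter one. Ccser2 gave 1.04 ± 0.20 in a probe set whose control array 1 (6.85) overlapped the Met-fed arrays (6.83 to 7.25), and 0.11 ± 0.10 in a brighter one.

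Depp1, a target of FoxO transcription factors that acts on peroxisomes and autophagy, was lower. On control arrays its log2 signals were 9.62, 9.59, 9.74, 9.81 and 9.41, against 8.96, 9.40, 8.92 and 8.99 on Met-fed arrays, with Met-fed array 2 just below the lowest control (difference of -0.57 ± 0.11). Tcim, a regulator of Wnt signaling, was at 9.84 to 9.97 on control and 9.18 to 9.61 on Met-fed arrays (-0.48 ± 0.10). Sbf2, a myotubularin-related protein (-0.47 ± 0.10), and Mcf2l, a guanine nucleotide exchange factor (-0.58 ± 0.12, with -0.04 ± 0.24 in its other probe set), were lower without overlap of the groups. Larger differences were found where the groups overlapped. Mis18a, a centromere protein chosen here, as was Star, after its values were seen, was at 2.95 to 4.38 on control and 7.36 to 8.54 on 3 Met-fed arrays but 2.47 on Met-fed array 1 (2.75 ± 1.04). Star, the steroidogenic cholesterol carrier, was at 6.79 and 6.96 on Met-fed arrays 1 and 3 and at 3.41 and 3.57 on arrays 2 and 4, against 2.69 to 4.59 on control arrays, so its difference rested on 2 arrays. Both met the signal limit only through other arrays than the controls.

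Processes were described through 76 gene lists, 65 of processes and 11 of cell type markers, with each gene read by its brightest well-measured probe set. The background for their counts, by the same unadjusted threshold, is 7.37% of the 9393 genes on the higher and 5.36% on the lower side, with a median log2 difference of 0.01. Of all lists, 6 had at least 2 times the background share on the higher side with at least 3 genes, and 12 on the lower side. The list counts carry no test of the list. When Met-fed arrays 1 and 4 were left out, the background was 4.49% higher and 5.11% lower. It was 4.14% and 4.01% without Met-fed array 1 alone. With the spike-in level as a covariate it was 2.99% and 3.40%, and after median centring 4.24% and 8.25%.

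**Figure D3:**
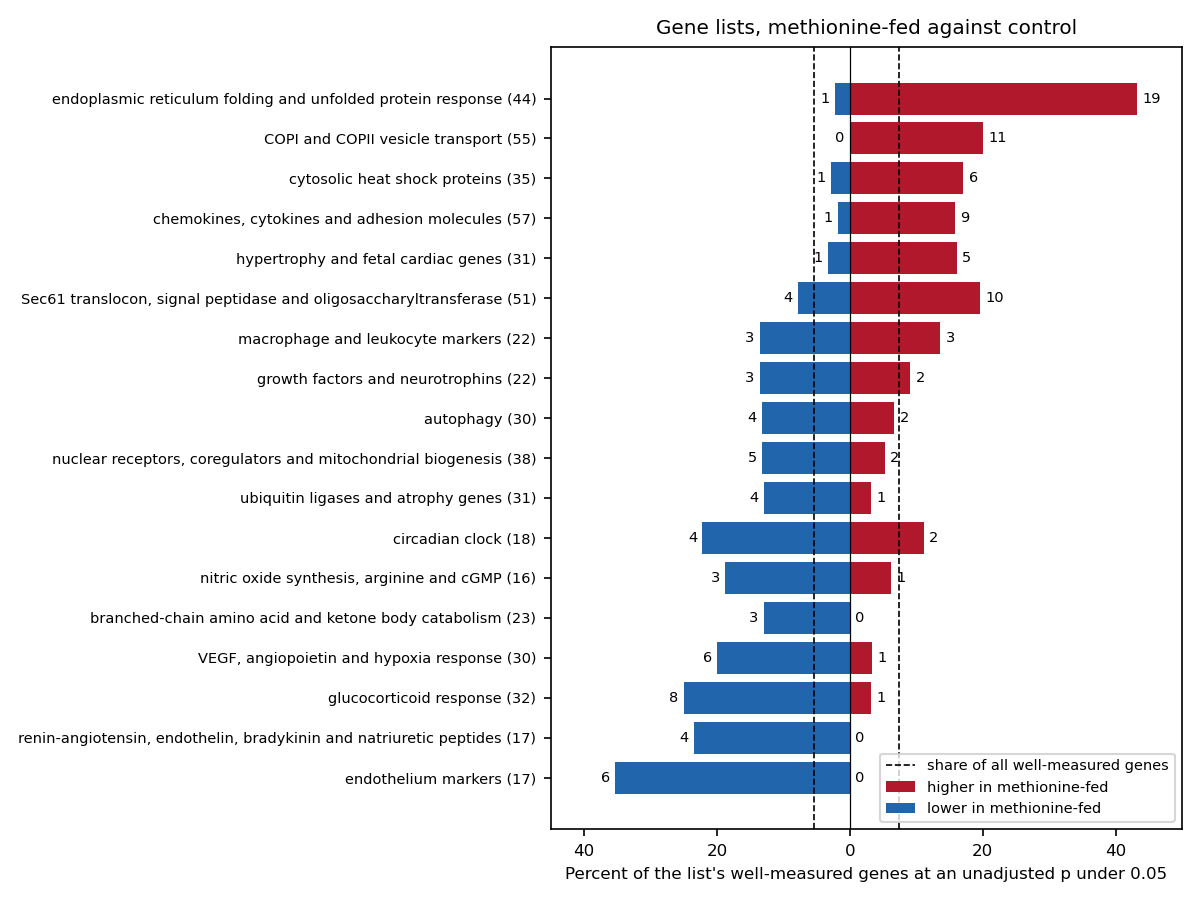
Share of the well-measured genes at an unadjusted p under 0.05 (horizontal axis, percent) in the 18 lists past 2 times the background share in a direction, higher to the right and lower to the left, with counts at the bars, well-measured genes in parentheses and the background shares of 7.37% and 5.36% as lines. The list of endoplasmic reticulum folding reaches furthest on the higher side (43.2%) and endothelium markers on the lower side (35.3%).

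Genes of protein folding in the endoplasmic reticulum were higher on Met-fed arrays more often than any other list of at least 5 well-measured genes. Of 44 well-measured genes of endoplasmic reticulum folding and the unfolded protein response, 19 (43.2%) were higher and 1 was lower at an unadjusted p under 0.05, 39 had a difference above 0, and the median difference was 0.24. The differences of the 19 spanned 0.20 to 0.93 and their adjusted p 0.15 to 0.46. Met-fed array 1 had the highest signal of all 9 arrays in 17 of the 19, and Met-fed arrays 2 and 3 were both above the control mean in 18 of 19. In a fit without Met-fed arrays 1 and 4, 8 of 44 (18.2%) were higher and none lower, with a median of 0.14. With the spike-in level as a covariate 8 (18.2%) were higher, against a background of 2.99%, and after median centring 15 (34.1%), against 4.24%. The part of the array-wide shift in these differences was not tested.

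Hyou1, a large chaperone of the endoplasmic reticulum that acts with Hspa5, had log2 signals of 7.69, 7.19, 7.57, 6.76 and 7.67 on control and 8.81, 7.93, 8.41 and 8.06 on Met-fed arrays, with no overlap. Sdf2l1, a partner of Hspa5 that is induced by unfolded protein, was at 7.58, 6.58, 7.41, 7.10 and 7.64 on control and 8.38, 7.81, 8.24 and 8.11 on Met-fed arrays, again with no overlap. Creld2, a disulfide isomerase-like protein of the same programme, had 6.67, 7.09, 7.44, 7.10 and 7.69 on control and 8.46, 7.51, 7.58 and 8.26 on Met-fed arrays, where arrays 2 and 3 lay within the control range (0.75 ± 0.21). Manf, a secreted factor retained in the endoplasmic reticulum that is induced with these chaperones, was at 7.84 to 8.36 on control and 8.45 to 8.97 on Met-fed arrays without overlap (0.50 ± 0.12).

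The central chaperone Hspa5, also named BiP, had log2 signals of 10.87, 10.58, 10.68, 10.44 and 10.88 on control and 11.12, 10.88, 11.01 and 10.88 on Met-fed arrays, a difference of 0.28 ± 0.09. The co-chaperones Dnajb11 (0.39 ± 0.12), Dnajc3 (0.33 ± 0.11) and Dnajc10 (0.27 ± 0.09, and 0.13 ± 0.13 in its other probe set), which bring substrates to Hspa5, and the Hsp70-family member Hspa13 (0.39 ± 0.16) were higher as well. Hsp90b1, the Hsp90 of the endoplasmic reticulum, was at 8.53 to 9.34 on control and 9.04 to 9.91 on Met-fed arrays, with array 1 the highest (0.53 ± 0.17).

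The disulfide isomerases Pdia4 (0.73 ± 0.28), Pdia3 (0.42 ± 0.19, and 0.29 ± 0.27 in its other probe set), Pdia6 (0.32 ± 0.11), Txndc5 (0.33 ± 0.15) and Txndc11 (0.53 ± 0.13) were higher at an unadjusted p under 0.05. Only the groups of Txndc11 did not overlap among these 5. The prolyl isomerases Fkbp2 and Ppib, which help proline-rich proteins fold, gave 0.49 ± 0.11 and 0.34 ± 0.13, and both well-measured probe sets of Fkbp2 were higher (0.50 ± 0.14 in the other). Xbp1, the transcription factor spliced by Ire1, was at 9.43 to 9.85 on control and 9.68 to 10.08 on Met-fed arrays (0.26 ± 0.10), and the spliced form was not measured apart. Derl2, of the channel that removes misfolded proteins, was higher in 2 probe sets (0.20 ± 0.08 and 0.48 ± 0.12).

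Other parts of the same programme gave no difference that reached an unadjusted p of 0.05. The abundant lectin chaperones Canx and Calr differed by 0.02 ± 0.06 and 0.02 ± 0.10 in their brightest probe sets, although 2 dimmer probe sets of Canx were higher (0.54 ± 0.21 and 0.15 ± 0.06). P4hb, the major disulfide isomerase, gave 0.07 ± 0.07, and Ero1b, an oxidase of the isomerases, 0.02 ± 0.15. Ddit3, the stress-induced factor also named CHOP, had 7.62 to 8.08 on control and 7.54 to 7.86 on Met-fed arrays (-0.15 ± 0.13), and Herpud1, of the degradation pathway, gave -0.12 ± 0.10. The sensor Atf6 gave 0.39 ± 0.20 (unadjusted p = 0.0626). Edem1, which routes misfolded glycoproteins to degradation, was the lower member of the list (-0.26 ± 0.12, and -0.18 ± 0.13 in its other probe set).

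The promoters of several of these genes hold the endoplasmic reticulum stress response element, which Atf6 is known to bind with NF-Y, and they are shown because Hspa5, the central chaperone of the list, and 4 other higher genes hold it. The element was searched as CCAAT, 9 bases of any kind and CCACG on both strands, in the 250 bases before each RefSeq start in the GRCr8 assembly. It was found in 22 of 33469 promoters (0.0657%) and in 8 of the 38 well-measured list genes with a promoter sequence (21.1%). The first share counts promoters and the second counts genes, so they are not like for like. These were the higher genes Hspa5, Hsp90b1, Creld2, Xbp1 and Dnajc3, 5 of the 17 genes of the list with an unadjusted p under 0.05 and a promoter sequence, and Canx, Calr and Ero1b, which were not. A match is a description of the letters and no measure of binding. The sequences below run 5′ to 3′ on the strand of the gene, the CCAAT and CCACG blocks or their reverse complements are in capitals, and Canx is shown as a gene that holds the element with no difference in its brightest probe set.
Hspa5, chr3:38452766-38453015, plus strand: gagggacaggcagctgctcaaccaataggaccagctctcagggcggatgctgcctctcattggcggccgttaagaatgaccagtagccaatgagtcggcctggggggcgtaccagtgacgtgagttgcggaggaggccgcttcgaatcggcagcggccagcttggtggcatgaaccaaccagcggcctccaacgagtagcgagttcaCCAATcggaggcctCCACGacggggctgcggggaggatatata
Hsp90b1, chr7:23012294-23012543, minus strand: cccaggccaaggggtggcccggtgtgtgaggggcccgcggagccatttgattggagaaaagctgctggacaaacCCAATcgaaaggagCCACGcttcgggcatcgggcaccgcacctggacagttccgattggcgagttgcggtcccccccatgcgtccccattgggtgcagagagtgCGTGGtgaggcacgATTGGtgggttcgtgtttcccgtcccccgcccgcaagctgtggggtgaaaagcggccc
Creld2, chr7:121789134-121789383, plus strand: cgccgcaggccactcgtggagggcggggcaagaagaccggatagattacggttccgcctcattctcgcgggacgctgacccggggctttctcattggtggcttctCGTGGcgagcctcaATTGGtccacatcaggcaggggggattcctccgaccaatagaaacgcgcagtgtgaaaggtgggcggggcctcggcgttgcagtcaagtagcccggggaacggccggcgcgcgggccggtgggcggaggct
Xbp1, chr14:84604373-84604622, plus strand: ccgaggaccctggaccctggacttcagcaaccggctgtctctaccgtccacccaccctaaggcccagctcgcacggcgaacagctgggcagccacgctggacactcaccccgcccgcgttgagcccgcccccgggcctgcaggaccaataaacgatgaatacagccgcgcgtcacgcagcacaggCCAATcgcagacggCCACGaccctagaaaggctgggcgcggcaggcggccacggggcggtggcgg
Dnajc3, chr15:102432417-102432666, plus strand: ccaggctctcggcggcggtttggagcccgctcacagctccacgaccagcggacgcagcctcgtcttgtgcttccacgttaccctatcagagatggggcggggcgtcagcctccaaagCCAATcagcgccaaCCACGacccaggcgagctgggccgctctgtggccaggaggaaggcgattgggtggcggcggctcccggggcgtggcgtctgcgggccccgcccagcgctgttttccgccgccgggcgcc
Canx, chr10:35157858-35158107, minus strand: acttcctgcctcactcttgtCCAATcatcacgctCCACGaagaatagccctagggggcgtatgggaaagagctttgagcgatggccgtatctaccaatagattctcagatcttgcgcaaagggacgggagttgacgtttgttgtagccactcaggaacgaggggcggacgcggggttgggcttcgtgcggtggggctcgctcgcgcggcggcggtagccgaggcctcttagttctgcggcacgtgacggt

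The element stood 25 to 43 bases before the start in Hspa5, the nearest of the 6, and in Hsp90b1 there were 2 matches on opposite strands. Differences of the 5 higher genes that hold it spanned 0.26 in Xbp1 to 0.75 in Creld2. Hyou1 and Sdf2l1, with differences of 0.93 and 0.87, are named here for comparison, and the letters were not found in their windows. The searched letters were thus not found in all members that were higher, nor were all that hold them higher. Only exact matches in these windows were searched, so other forms of the element and sites elsewhere would be missed.

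**Figure D4:**
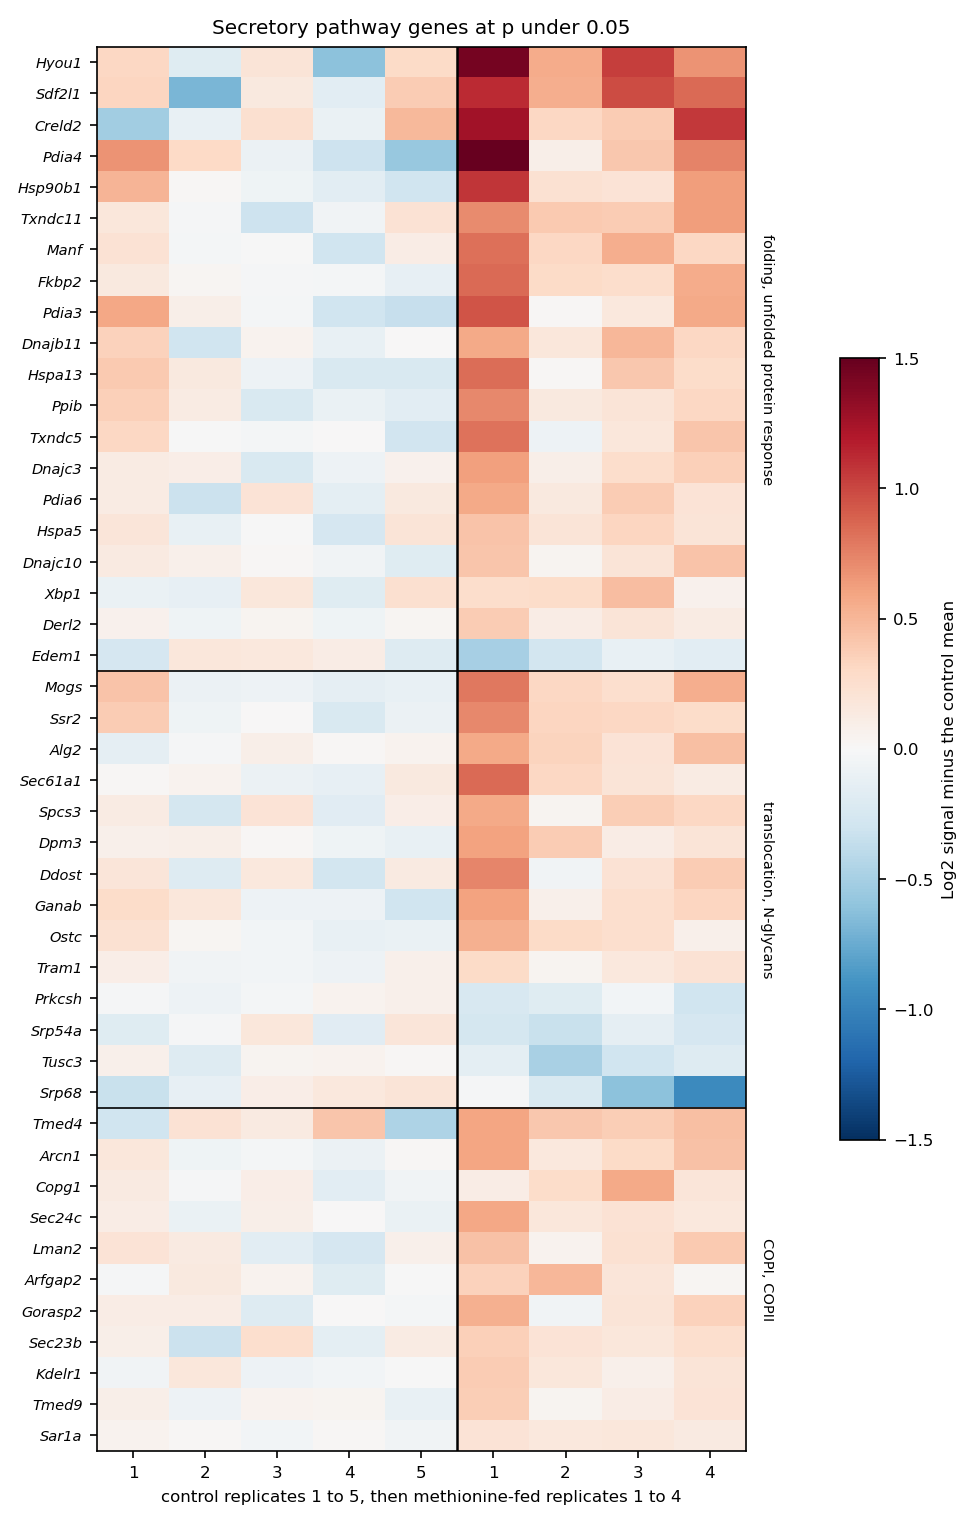
Log2 signal of secretory pathway genes at an unadjusted p under 0.05 (rows) on the 5 control and 4 Met-fed arrays (columns), as the difference from the control mean of each gene, with the colour scale in log2 units. Most rows on the higher side are highest in the column of Met-fed array 1.

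With all arrays, other steps of the secretory pathway also had more higher than lower genes, with smaller medians. Of 51 genes of the Sec61 translocon, signal peptidase and oligosaccharyltransferase, which bring proteins into the endoplasmic reticulum and attach sugars, 10 (19.6%) were higher and 4 lower, with a median of 0.06. Mogs, which trims the first glucose from new glycans, had 6.59 to 7.15 on control and 6.98 to 7.52 on Met-fed arrays (0.48 ± 0.14). The glycosyltransferase Alg2 (0.39 ± 0.10) was higher without overlap, at 7.26 to 7.48 on control and 7.60 to 7.96 on Met-fed arrays. The translocon subunits Sec61a1 (0.37 ± 0.14), Tram1 (0.17 ± 0.07) and Ssr2 (0.40 ± 0.12), the signal peptidase subunit Spcs3 (0.32 ± 0.11), the oligosaccharyltransferase subunits Ddost (0.32 ± 0.15) and Ostc (0.29 ± 0.10), Dpm3 of dolichol mannose synthesis (0.32 ± 0.11) and glucosidase subunit Ganab (0.31 ± 0.14) were the others. On the lower side were Tusc3, another oligosaccharyltransferase subunit (-0.28 ± 0.10), Prkcsh, the partner subunit of Ganab (-0.19 ± 0.07), and Srp54a and Srp68 of the signal recognition particle (-0.25 ± 0.10 and -0.46 ± 0.17, with -0.03 ± 0.12 in the other probe set of Srp54a). Met-fed array 1 was the highest of all arrays in 10 of the 10 higher genes, and without it 4 genes were higher and 4 lower. Without Met-fed arrays 1 and 4 the counts were 3 higher and 4 lower. With the spike-in level as a covariate they were 1 higher and 5 lower, and without Met-fed array 4 they were 9 higher and 1 lower.

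Coat proteins of COPI and COPII vesicles, which carry cargo between endoplasmic reticulum and Golgi, were higher in 11 of 55 genes (20.0%) and lower in none, with a median of 0.12. Arcn1, the delta subunit of COPI, was at 7.96 to 8.23 on control and 8.22 to 8.65 on Met-fed arrays (0.37 ± 0.09, and 0.24 ± 0.16 in its other probe set), and Copg1, another COPI subunit, was higher in 2 probe sets (0.28 ± 0.10 and 0.31 ± 0.12). The cargo receptors Tmed4 (0.45 ± 0.15, and 0.36 ± 0.17 in its other probe set), Tmed9 (0.18 ± 0.08 and 0.51 ± 0.16) and Lman2 (0.28 ± 0.12) and the COPII proteins Sec24c (0.28 ± 0.10, and 0.19 ± 0.21 in its other probe set), Sec23b (0.25 ± 0.11) and Sar1a (0.17 ± 0.06, and 0.05 ± 0.12 in its other probe set) shared the direction. Kdelr1, which returns chaperones to the endoplasmic reticulum, gave 0.21 ± 0.08, Arfgap2, which uncoats COPI vesicles, 0.27 ± 0.11, and Gorasp2, a Golgi stacking protein, 0.26 ± 0.12. The count was 3 of 55 after median centring, 4 with the spike-in level as a covariate, 4 without Met-fed array 1, 7 without control array 4 and 5 without Met-fed arrays 1 and 4.

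Cytosolic heat shock proteins were higher in 6 of 35 genes (17.1%) and lower in 1, with a median of 0.04. They were Stip1, which links Hsp70 and Hsp90 (0.37 ± 0.12), the small heat shock proteins Hspb2 and Hspb3 of muscle (0.33 ± 0.10 and 0.28 ± 0.08), the Hsp70 exchange factor Hsph1 (0.24 ± 0.08, and 0.43 ± 0.18 in its other probe set), the co-chaperone Dnajb2 (0.27 ± 0.09) and St13 (0.18 ± 0.08). Hspb3 was at 8.89 to 9.11 on control and 9.14 to 9.44 on Met-fed arrays, without overlap. St13 had a second probe set of the opposite sign (-0.19 ± 0.11). Chordc1, an Hsp90 co-chaperone, was the lower member (-0.21 ± 0.08). The higher share of the list was 14.3% without Met-fed arrays 1 and 4, and 5.71% (2 genes) with the spike-in level as a covariate. After median centring 4 were higher and the median was -0.02.

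Chemokines, cytokines and adhesion molecules were higher in 9 of 57 genes (15.8%) and lower in 1, with a median of 0.13. Ccl2, which attracts monocytes, was the most separated of them. Its log2 signals were 8.53, 7.28, 7.95, 7.95 and 7.84 on control and 8.96, 8.93, 8.90 and 9.07 on Met-fed arrays, a mean 2.08-fold higher (95% interval 1.53 to 2.83). The Met-fed arrays of Ccl2 lay closer together (SD of 0.07) than the control arrays (SD of 0.44), and the difference was 1.01 without arrays 1 and 4. Ccl7 stands beside Ccl2 in its family and acts on the same receptor. It was at 6.02 to 6.61 on control and at 6.77 to 7.96 on Met-fed arrays, where its largest signals were on arrays 1 and 4 (7.96 and 7.39), and the difference of 1.01 ± 0.21 became 0.61 without them.

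The endothelial adhesion molecule Vcam1 (0.61 ± 0.19), the lymphoid chemokine Ccl19 (0.75 ± 0.33), the receptor subunits Il17ra (0.52 ± 0.19) and Tnfrsf12a (0.57 ± 0.27), the alarmin Il33 (0.31 ± 0.12, but -0.03 ± 0.16 in its other probe set), the macrophage growth factor Csf1 (0.54 ± 0.20) and the NF-kB inhibitor Nfkbib (0.46 ± 0.16) were the other higher genes. Each of these had overlapping groups except Nfkbib, which was at 7.12 to 7.98 on control and 8.03 to 8.31 on Met-fed arrays. Il10rb, a receptor subunit for interleukin 10, was lower (-0.27 ± 0.10). The list had 3 higher and 2 lower genes without Met-fed arrays 1 and 4, and without Met-fed array 1 alone, or with the spike-in level as a covariate, 4 higher. Leukocyte markers were split between both directions. Of 22 well-measured macrophage and leukocyte markers 3 were higher and 3 lower, with 4 more listed only under the signal limit, and their summed linear signal was 8888 to 11277 on control and 8813 to 11339 on Met-fed arrays.

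Among those markers Cd14, the co-receptor for endotoxin, was at 7.07 to 7.53 on control and at 8.42, 7.40, 7.48 and 8.08 on Met-fed arrays (0.59 ± 0.18). The leukocyte integrin subunit Itgb2 (0.26 ± 0.12) and Laptm5, a lysosomal protein of blood cells (0.29 ± 0.13, and 0.24 ± 0.16 in its other probe set), were higher. Ptprc, the pan-leukocyte phosphatase CD45 (-0.26 ± 0.11), Cd163, the scavenger receptor of resident macrophages (-0.33 ± 0.13), and Gzmb, the granzyme of cytotoxic cells (-0.91 ± 0.34), were lower. Genes of opposite direction thus stood side by side within the list. Siglec5, a lectin of myeloid cells chosen after its values were seen, was at 7.33 to 8.50 on control and at 6.03, 7.07, 4.70 and 8.05 on Met-fed arrays (-1.46 ± 0.58).

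Circadian clock genes differed in both directions. Of 18 well-measured clock genes 2 were higher (11.1%) and 4 lower (22.2%), with a median of -0.13. Bmal1, the activator that pairs with Clock, was at 5.71, 4.76, 4.87, 5.31 and 5.77 on control and 5.22, 6.02, 6.20 and 6.49 on Met-fed arrays (0.70 ± 0.27). Nfil3, a repressor of D-box genes, was at 7.57, 6.05, 7.06, 7.67 and 8.02 on control and 7.33, 8.59, 8.51 and 8.42 on Met-fed arrays (0.94 ± 0.33). In both, Met-fed array 1 lay within the control range and the 3 other Met-fed arrays above it.

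The lower clock genes were all repressors, although Nfil3, also a repressor, was higher. Nr1d1, the nuclear receptor REV-ERB alpha that represses Bmal1, was at 8.90, 9.30, 9.12, 8.69 and 8.56 on control and 8.87, 8.20, 8.27 and 8.0 on Met-fed arrays (-0.58 ± 0.23). Its relative Nr1d2 was at 9.46, 9.75, 9.56, 9.37 and 8.98 on control and 9.51, 8.86, 8.86 and 8.85 on Met-fed arrays (-0.40 ± 0.18, and -0.62 ± 0.22 in its other probe set). Here too Met-fed array 1 was at the control level and the 3 others were below every control array. Per2, a repressor of Clock and Bmal1, gave -0.66 ± 0.31 in one probe set and -0.19 ± 0.30 in the other, and Bhlhe40, a repressor at E-boxes, was at 5.94 to 6.43 on control and 5.04 to 5.76 on Met-fed arrays without overlap (-0.73 ± 0.30).

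Other clock members did not reach an unadjusted p of 0.05. Dbp, a D-box activator and a strongly rhythmic clock output, spanned 7.02 to 9.13 on control arrays and was at 8.54, 6.72, 6.60 and 7.13 on Met-fed arrays (-0.77 ± 0.48). Clock gave 0.30 ± 0.14 (unadjusted p = 0.0513, and 0.18 ± 0.16 in its other probe set) and Per1 -0.15 ± 0.28. The lower count depended on single arrays, with 0 without control array 3, 0 without Met-fed array 3, 1 without control array 2, 1 without Met-fed array 2 or 4 and 2 without control array 1 or 4. It was 5 without Met-fed arrays 1 and 4, with 3 genes higher. With the spike-in level as a covariate 6 genes were lower and 2 higher, with a median of -0.26. The labels give the day of harvest but no hour, and the part of the hour in these differences was not tested.

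The E-box CACGTG, to which Clock and Bmal1 are known to bind, was searched on both strands in the same promoter windows. It was found in 1872 of 33469 promoters (5.59%) and in 4 of 15 well-measured clock genes with a promoter sequence, namely Nr1d1, Bhlhe40, Bhlhe41 and Tef. Again the first count is of promoters and the second of genes. The promoters of the 2 that were lower at an unadjusted p under 0.05 are shown with the E-box in capitals, since Nr1d1 and Bhlhe40 are known targets of Clock and Bmal1.
Nr1d1, chr10:84229455-84229704, minus strand: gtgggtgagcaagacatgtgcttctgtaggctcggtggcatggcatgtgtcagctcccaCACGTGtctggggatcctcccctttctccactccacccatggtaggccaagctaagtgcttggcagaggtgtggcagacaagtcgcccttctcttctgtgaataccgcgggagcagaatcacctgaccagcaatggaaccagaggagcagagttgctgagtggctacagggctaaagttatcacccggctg
Bhlhe40, chr4:143174200-143174449, plus strand: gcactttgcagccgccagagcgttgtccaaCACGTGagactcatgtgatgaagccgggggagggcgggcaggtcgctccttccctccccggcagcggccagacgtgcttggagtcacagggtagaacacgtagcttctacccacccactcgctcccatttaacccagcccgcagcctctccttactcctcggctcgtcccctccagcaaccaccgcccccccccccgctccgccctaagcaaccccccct

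Both E-boxes lay in the far part of the window, 191 and 220 bases before the start. Bhlhe41 and Tef, which hold the same letters, had differences of -0.12 ± 0.33 and -0.13 ± 0.20.

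Glucocorticoid-responsive genes were lower in 8 of 32 (25%) and higher in 1, with a median of -0.20. Tsc22d3, the glucocorticoid-induced leucine zipper, was at 9.57, 10.35, 9.99, 10.15 and 9.72 on control and 9.43, 9.45, 9.52 and 9.66 on Met-fed arrays, with Met-fed array 4 inside the control range (-0.44 ± 0.13). Fzd4, a Wnt and norrin receptor, was at 7.20 to 7.41 on control and 6.83 to 7.02 on Met-fed arrays without overlap (-0.35 ± 0.09). Sesn1, a stress-induced inhibitor of mTORC1, was at 9.31 to 9.98 on control and at 8.79, 9.37, 9.30 and 8.65 on Met-fed arrays (-0.61 ± 0.18).

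Klf15, a cardiac transcription factor that restrains hypertrophy, was at 8.25 to 8.70 on control and 7.69 to 8.23 on Met-fed arrays (-0.54 ± 0.18). Its groups did not overlap. The transcription factor Cebpd (-0.46 ± 0.15), the phagocytic receptor Mertk (-0.37 ± 0.13), the thioredoxin inhibitor Txnip (-0.16 ± 0.07) and the kinase Sgk1 (-0.20 ± 0.08) completed the lower genes. Cebpa was higher (0.63 ± 0.27, and 0.61 ± 0.32 in its other probe set), while Fkbp5, a classical target of the receptor, spanned 7.44 to 9.00 on control and 8.26 to 8.50 on Met-fed arrays (0.05 ± 0.23). The list had 8 lower genes without Met-fed arrays 1 and 4 as well, with a median of -0.25, and 3 with the spike-in level as a covariate.

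**Figure D5:**
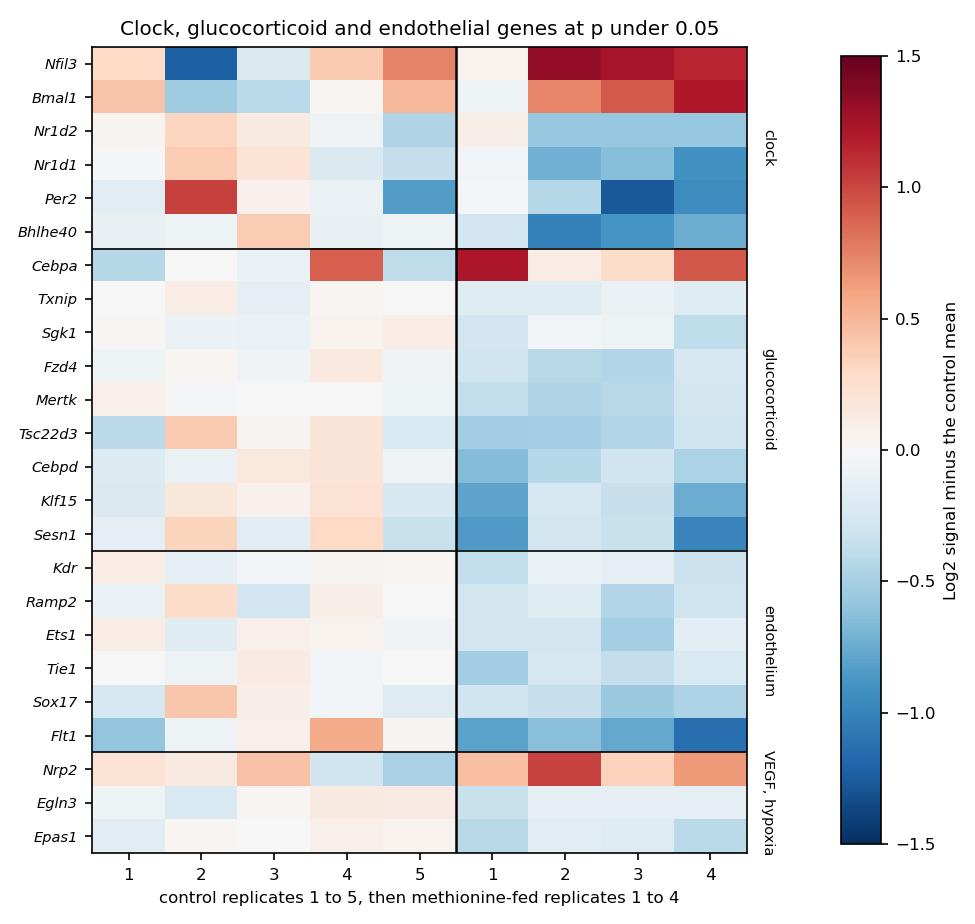
Log2 signal of clock, glucocorticoid-responsive and endothelial genes (rows) on the 5 control and 4 Met-fed arrays (columns), as the difference from the control mean of each gene, with the colour scale in log2 units. In the rows of Bmal1, Nfil3, Nr1d1 and Nr1d2 Met-fed array 1 lies within the control range, and in the rows of Flt1, Tie1, Kdr, Ets1, Sox17 and Ramp2 all 4 Met-fed columns are below the control mean.

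Endothelium markers were lower in 6 of 17 well-measured genes (35.3%) and higher in none, with a median of -0.10, and 3 of the 20 listed had no probe set with a single symbol. Flt1, the VEGF receptor 1, was at 6.70, 7.22, 7.37, 7.86 and 7.34 on control and 6.49, 6.67, 6.53 and 6.17 on Met-fed arrays without overlap (-0.83 ± 0.17). A dim second probe set of Flt1 gave 0.06 ± 0.20. Tie1, an angiopoietin co-receptor, was at 7.94 to 8.14 on control and 7.49 to 7.79 on Met-fed arrays without overlap (-0.34 ± 0.10). Kdr, the VEGF receptor 2, was at 10.54 to 10.80 on control and at 10.31, 10.59, 10.54 and 10.37 on Met-fed arrays (-0.23 ± 0.07).

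The transcription factors Ets1 (-0.31 ± 0.10) and Sox17 (-0.41 ± 0.15) and Ramp2, the adrenomedullin receptor subunit (-0.30 ± 0.10), were the other lower markers. Sox17 was at 7.60 to 8.27 on control and 7.31 to 7.56 on Met-fed arrays without overlap. Other defining markers did not reach an unadjusted p of 0.05, with Pecam1 at -0.19 ± 0.10 and Cldn5 at 0.00 ± 0.20. The summed linear signal of the 17 markers was 10242 to 11178 on control and 9358 to 10318 on Met-fed arrays, 0.905 of the control mean. The count of lower markers was 7 without Met-fed arrays 1 and 4, 6 to 8 with any 1 array left out, 7 after median centring and 4 with the spike-in level as a covariate.

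VEGF, angiopoietin and hypoxia genes shared Flt1, Kdr and Tie1 with the marker list and Bhlhe40 with the clock, and were lower in 6 of 30 (20.0%) and higher in 1. Epas1, the hypoxia-inducible factor HIF-2 alpha of endothelium, was at 10.56 to 10.81 on control and 10.30 to 10.57 on Met-fed arrays (-0.29 ± 0.07). Egln3, a prolyl hydroxylase that marks such factors for degradation, gave -0.19 ± 0.08. Nrp2, a co-receptor for VEGF-C and semaphorins, was higher (0.61 ± 0.22). Vegfa itself was at 9.60 to 9.92 on control and 9.30 to 10.03 on Met-fed arrays (0.01 ± 0.12, and 0.13 ± 0.21 in its other probe set).

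Genes of vessel tone were mostly on the lower side where they reached an unadjusted p of 0.05. Of 17 renin-angiotensin, endothelin, bradykinin and natriuretic peptide genes, 4 were lower (23.5%) and none higher, with a median of -0.06. Besides Ramp2 these were the angiotensin-converting enzyme Ace (-0.56 ± 0.21), the angiotensin receptor Agtr1a (-0.59 ± 0.23) and the propeptide convertase Furin (-0.34 ± 0.11). Ace was at 5.91 to 6.66 on control and 5.34 to 6.03 on Met-fed arrays, and Agtr1a at 5.48 to 6.34 and 4.87 to 5.82, so the groups of both overlapped. With the spike-in level as a covariate 0 of the 17 were lower.

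Of 16 genes of nitric oxide synthesis, arginine and cGMP, 3 were lower (18.8%) and 1 higher. The list as a whole did not share that direction, with a median of 0.07, 11 genes above 0 and 5 below. Cav1, a caveolin that binds the endothelial nitric oxide synthase, and its relative Cav2 gave -0.27 ± 0.09 and -0.22 ± 0.09. Both other probe sets of Cav2 were below 0 (-0.47 ± 0.11 and -0.43 ± 0.21), while those of Cav1 were at 0.18 ± 0.14 and -0.03 ± 0.16. Nostrin, which traffics the synthase, gave -0.62 ± 0.28, and Ddah1, which degrades the inhibitor asymmetric dimethylarginine, was higher (0.47 ± 0.20). None of the 16 was lower or higher without Met-fed arrays 1 and 4. Without array 1 alone 1 was lower and 2 higher, and with the spike-in level as a covariate none was lower and 1 higher.

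Hypertrophy and fetal cardiac genes were higher in 5 of 31 (16.1%) and lower in Klf15, with a median of 0.10. Rcan1, the calcineurin inhibitor induced by calcineurin itself, was at 6.84 to 7.93 on control and at 8.99, 8.31, 7.68 and 8.30 on Met-fed arrays (0.87 ± 0.24). Acta1, the skeletal alpha-actin of the fetal programme, was at 9.31 to 9.81 on control and at 9.60, 10.25, 9.60 and 10.24 on Met-fed arrays (0.38 ± 0.14). Timp1, an inhibitor of matrix proteases, was at 9.90 and 9.39 on Met-fed arrays 1 and 4 and at 7.65 and 8.13 on arrays 2 and 3, against 7.22 to 8.85 on control arrays (0.85 ± 0.38). Tgfb2, the growth factor TGF-beta 2, showed the same split, at 8.23 and 8.26 against 6.54 and 7.33, with 6.70 to 7.39 on control arrays (0.63 ± 0.29, and 0.84 ± 0.31 in its other probe set). Without Met-fed arrays 1 and 4 these 2 differences became -0.032 and -0.029.

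Tbx5, a cardiac transcription factor, was also higher (0.32 ± 0.14). The natriuretic peptides did not reach an unadjusted p of 0.05. Nppa was at 9.22 to 10.51 on control and 9.42 to 11.09 on Met-fed arrays (0.11 ± 0.32), and Nppb at 8.97 to 11.10 and 10.11 to 11.09 (0.24 ± 0.33). The hypertrophy count was 1 by the methods' t-test, 3 without Met-fed array 1, 2 without Met-fed array 4, 2 without control array 4, 2 without Met-fed arrays 1 and 4 and 2 with the spike-in level as a covariate.

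Few genes of the contractile apparatus reached an unadjusted p of 0.05. Of 19 genes of the thick filament and myosin only Myh6, the adult alpha myosin heavy chain, was lower at an unadjusted p under 0.05, at 12.14 to 12.30 on control and 11.61, 12.16, 12.19 and 11.98 on Met-fed arrays (-0.24 ± 0.10, and -0.09 ± 0.21 in its other probe set). When Met-fed arrays 1 and 4 were left out, the difference of Myh6 was -0.05, 5 of the 19 genes (26.3%) were higher and 2 lower, and the median was 0.09 in place of -0.05. Of 47 genes of the thin filament, Z-disc and costamere 5 were higher and 2 lower. Besides Acta1, Flnc and Pdlim3 they were Tnnt3, a fast skeletal troponin T (0.44 ± 0.19), and dystroglycan Dag1 (0.24 ± 0.10, and 0.18 ± 0.09 in its other probe set) on the higher side and tropomodulin Tmod1 (-0.23 ± 0.07, but 0.01 ± 0.14 in its other probe set) and the Z-disc adaptor Pdlim5 (-0.17 ± 0.07) on the lower side. Of 22 genes of the intercalated disc and gap junctions 2 were higher, the desmosomal Dsc2 (0.28 ± 0.10) and Jup (0.21 ± 0.10), and 2 lower, the membrane adaptor Ank2 (-0.56 ± 0.14) and Gja4, the connexin of arterial endothelium (-0.45 ± 0.12). Ank2 was at 9.79 to 10.36 on control and 9.38 to 9.96 on Met-fed arrays.

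Among 34 potassium, sodium and chloride channels and pumps 4 were higher and 3 lower. Kcna5, the voltage-gated potassium channel of the ultrarapid current, was at 6.53 to 7.55 on control and 5.35 to 6.09 on Met-fed arrays without overlap. Kcna4, another voltage-gated potassium channel, had the opposite direction, at 6.74 to 7.38 on control and 7.29 to 7.88 on Met-fed arrays (0.50 ± 0.16). Kcnj5, of the acetylcholine-gated channel, was higher (0.63 ± 0.24), and Abcc9, the sulfonylurea receptor (-0.23 ± 0.09, and -0.24 ± 0.18 in its other probe set), and Scn7a, a sodium channel (-0.30 ± 0.13), were lower. Of 44 genes of calcium cycling 3 were higher and none lower. Camk2b, a calmodulin-dependent kinase subunit, was at 4.22 to 4.98 on control and 4.90 to 5.91 on Met-fed arrays (0.75 ± 0.23), with a control mean of 4.63 under the signal limit, Cacna2d1, a calcium channel subunit, gave 0.37 ± 0.15, and Rcan1 was the last.

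Few genes of energy metabolism reached an unadjusted p of 0.05. Of 34 genes of respiratory complex I 1 was higher, Ndufb8 (0.61 ± 0.23), and of 31 of complexes II, III and IV 1 was higher, the cytochrome oxidase assembly factor Surf1 (0.17 ± 0.07), and 1 lower, Sdhd of complex II (-0.26 ± 0.08, with 0.03 ± 0.09 in its other probe set). None of 22 genes of ATP synthase and adenine nucleotide carriers reached an unadjusted p of 0.05. In these lists only 7, 3 and 3 genes had a difference above 0, with medians of -0.06, -0.07 and -0.08. Without Met-fed arrays 1 and 4, 20.6% of complex I genes were higher, against a background of 4.49%, and the 3 medians turned to 0.10, 0.07 and 0.08. With the spike-in level as a covariate they were 0.08, 0.07 and 0.09.

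Genes of fuel use that reached an unadjusted p of 0.05 were on the lower side with 1 exception, and this direction depended on Met-fed arrays 1 and 4. In a fit that left out both, 3 genes of the citric acid cycle were higher and 1 lower, with 5 and 1 of glycolysis, 6 and 2 of fatty acid use and 4 and 1 of branched-chain catabolism. The medians of these lists went from -0.10, -0.09, -0.04 and -0.06 to 0.05, 0.04, 0.04 and 0.10. With all arrays the genes were as follows. Of 25 genes of the citric acid cycle and pyruvate dehydrogenase 2 were lower, the pyruvate dehydrogenase subunits Pdha1 (-0.22 ± 0.08, but 0.03 ± 0.13 in its other probe set) and Dld (-0.18 ± 0.08). Of 30 genes of glycolysis and glycogen 3 were lower, the muscle glycogen phosphorylase Pygm (-0.24 ± 0.09, with -0.23 ± 0.17 and 0.17 ± 0.11 in its other probe sets), the primer Gyg1 (-0.16 ± 0.07) and the branching enzyme Gbe1 (-0.18 ± 0.08), and the liver-type phosphofructokinase Pfkl was higher (0.31 ± 0.14). Of 39 genes of fatty acid uptake and beta-oxidation only Crat, the carnitine acetyltransferase, was lower (-0.29 ± 0.10), at 10.70 to 11.02 on control and 10.53 to 10.72 on Met-fed arrays. Of 23 genes of branched-chain amino acid and ketone body catabolism 3 were lower (13%), Hibch (-0.27 ± 0.08) and Hibadh (-0.21 ± 0.09) of valine breakdown and Pcca of propionyl-CoA carboxylase (-0.28 ± 0.10), which also handles the carbon skeleton of methionine. Hibch was at 9.70 to 9.95 on Met-fed arrays, below every control array. Leaving out Met-fed array 1 left 0 lower genes of glycolysis and 1 of branched-chain catabolism. Of 38 genes of mitochondrial chaperones and protein import 1 was lower, Mtx2 (-0.25 ± 0.08).

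Enzymes of the fed amino acid itself did not stand apart. Of 49 names listed for methionine, folate, transsulfuration and polyamine enzymes, 35 were well measured in the ventricle, and 1 of these was higher and none lower, with a median of 0.04. The gene was Apip, of the pathway that salvages methionine from methylthioadenosine, at 6.52 to 6.93 on control and 6.98 to 7.40 on Met-fed arrays without overlap (0.34 ± 0.13). The share of 2.86% higher is below the 7.37% of all genes.

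In the lists of ubiquitin ligases and of autophagy more genes were lower than higher at an unadjusted p under 0.05, with medians near 0 (-0.04 and -0.007). Other lists of protein breakdown were not past 2 times the background. The proteasome had 1 of 38 genes higher and 3 lower, with a median of 0.03. The lysosome had 2 of 35 higher and 2 lower, and the vacuolar ATPase 0 of 17 higher and 1 lower. Of 31 ubiquitin ligases and atrophy genes 4 were lower (12.9%) and 1 higher, the ligase Cbl (0.25 ± 0.12, and 0.61 ± 0.19 in its other probe set). The lower genes were Cul4a, Ube2d2, a ubiquitin-conjugating enzyme (-0.38 ± 0.09, with -0.35 ± 0.10 and 0.02 ± 0.09 in its other probe sets), the F-box protein Fbxo31 (-0.50 ± 0.13) and the scaffold Cul3 (-0.21 ± 0.06, but 0.08 ± 0.11 in its other probe set). Ube2d2 was at 10.32 to 10.75 on control and 10.01 to 10.30 on Met-fed arrays, and Cul3 at 9.93 to 10.09 and 9.73 to 9.89, both without overlap. Of 30 autophagy genes 4 were lower, namely Rb1cc1 of the initiating kinase complex (-0.35 ± 0.09, and -0.14 ± 0.14 in its other probe set), Wipi1 (-0.30 ± 0.10), Becn1 (-0.18 ± 0.07) and the kinase Ulk1, and 2 were higher, Ambra1 (0.45 ± 0.16) and the receptor Optn (0.24 ± 0.09, and 0.06 ± 0.14 in its other probe set). The lower autophagy count was 2 without Met-fed array 1, without Met-fed arrays 1 and 4, and with the spike-in level as a covariate.

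Nuclear receptors, coregulators and mitochondrial biogenesis genes were lower in 5 of 38 (13.2%) and higher in 2. The thyroid hormone receptor Thrb (-0.33 ± 0.12, and -0.23 ± 0.17 in its other probe set), the retinoid receptor Rxrg (-0.31 ± 0.13) and the mitochondrial fusion protein Mfn1 (-0.21 ± 0.08) were lower, as were Ppard and the coactivator Ppargc1a, and the activators of mitochondrial genes Nrf1 (0.53 ± 0.19) and Pprc1 (0.32 ± 0.14) were higher. The lower count was 2 without Met-fed array 1 or 4, 1 without control array 4, 1 without Met-fed arrays 1 and 4 and 1 with the spike-in level as a covariate. Of 22 growth factors and neurotrophins 3 were lower, Fgf13 (-0.37 ± 0.10), Egf (-0.64 ± 0.24) and the receptor Ret (-0.65 ± 0.27), and 2 were higher, Csf1, the macrophage growth factor (0.54 ± 0.20), and the receptor Gfra2 (0.68 ± 0.23). Fgf13, which modulates cardiac sodium channels, was at 9.39 to 9.66 on control and 9.03 to 9.26 on Met-fed arrays without overlap.

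Markers of other cell types gave few differences at an unadjusted p under 0.05. Of 15 fibroblast markers only Mfap5, a microfibril protein, was lower (-0.40 ± 0.15), and of 12 smooth muscle and pericyte markers only Abcc9. Of 18 cardiomyocyte markers only Myh6 was lower, and of 8 atrial markers only Tbx5 was higher, while the summed atrial signal, led by Nppb and Nppa, was 3238 to 6183 on control and 4625 to 10656 on Met-fed arrays. Of 4 well-measured skeletal muscle markers 1 was higher, Tnnt3. None of the 4 erythroid, 5 adipocyte, 2 neuron and Schwann cell and 3 mesothelium markers that were well measured reached an unadjusted p of 0.05, and most names on these lists were dim or had no single symbol. Without Met-fed arrays 1 and 4, 33.3% of the cardiomyocyte markers were higher and 3 of the 4 erythroid markers lower.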

How the data were processed

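The authors computed the deposited signal intensity of each probe set with MAS5 (version not given in the sources used here), on a linear scale and scaled per array, and the values were used as deposited. Log2 intensities, without offset, of 31042 probe sets (57 control probe sets left out) were fitted with limma 3.58.1 in R 4.3.3, over all 13 arrays (a mean per group, no further term, prior variance fitted as a trend on mean signal), with Benjamini-Hochberg adjustment of the p-values. Groups came from the sample titles. The number of arrays limits the precision. The script was tested on simulated data.

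The members and the gene lists were chosen with earlier results of these data known, so no list is independent support. Genes were named as the 15 largest differences in each direction without overlap of groups and at an unadjusted p under 0.01 (leaving out the probe sets of the study's table of example genes), the next 10 by p, and up to 5 per list by p, where lists were described at 2 times the background with at least 3 genes or as cardiac, energy, methionine or marker lists. Called members of the leading lists, some uncalled ones and 3 of the largest differences with overlap were added after values were seen. Other well-measured probe sets of a named gene are given too. Genes were read from the platform annotation, and 11904 of 11936 matched RefSeq by Entrez number.

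Alternatives were quantile normalization, centring arrays on their median, log2 offsets (16 and 50), fitting bright probe sets alone, the compared groups alone, no variance trend, the methods' t-test, its unequal-variance form, the replicate number as a block, leaving out each array, and gene means. Leaving out Met-fed arrays 1 and 4 and the spike-in covariate were chosen after seeing the data. The variance stabilization of the methods was left out for lack of its settings. Promoters are from RefSeq (GRCr8). Exact permutation tests used all 126 splits of 9 arrays, for which the smallest 2-sided p is 0.00794.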

Additional observations from a re-analysis of the deposited data

Results flagged for a closer look

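In 22 of 424 groups of 4 or 5 arrays among the named probe sets (5.19%), 1 array lay so far from the others that its gap to the nearest exceeded the Dixon limit. Unselected normal values would give about 1 such group in 20, but these probe sets were named by their values, so the 2 rates cannot be compared. The arrays concerned were 12 control and 10 Met-fed ones, with control array 1 and Met-fed array 1 concerned in 5 each and control array 2 in 4.

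On Met-fed array 1 the log2 signals of Nfil3 (7.33, others from 8.42) and Nr1d2 (9.51, others up to 8.86), which belong to the clock, stood apart. On the same array Ssr2 (9.23) and Sec24c (8.51), of the secretory pathway, lay above the others and Egln3 (10.17) below them. Among the other Met-fed arrays these were Depp1 (9.40) and Pfkl (6.07), both above, on array 2, Rtn4 (7.66, below) and Txnip (11.63, above) on array 3, and Laptm5 (7.82, below) on array 4.

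On control array 1 the log2 signals of Ccser2 (6.85) and Mogs (7.15) lay above the other controls and those of Mtx2 (10.55), Pygm (10.73) and Crat (10.70) below. Without that array Ccser2 had an adjusted p of 0.00335 in limma with a log2 difference of 1.25, against 1.04 with all arrays. On control array 2 Ambra1 (6.00) and Kdelr1 (8.98) lay above and Tusc3 (7.73) and Nppb (8.97) below, Nppb by more than a log2 unit. Single values stood apart in Bhlhe40 on control array 3 (6.43, above), Amigo3 on control array 4 (4.03, below) and Surf1 on control array 5 (9.18, below).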

How the results depend on the processing

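No well-measured probe set passed an adjusted p of 0.05 as reported, and 0 or 1 did with any 1 array left out. The one was Ccser2 without control array 1 or Nid2 without L-NAME array 4. The higher count of 979 became 594 after median centring, 400 with the spike-in covariate, 586 by the t-test for unequal variances, 554 without Met-fed arrays 1 and 4, and 566 to 1181 with 1 array left out. The lower count of 581 became 898, 378, 410, 582 and 451 to 711 in the same order. Probe sets whose groups did not overlap went from 224 higher and 192 lower to 143 higher after centring and 936 and 790 without Met-fed arrays 1 and 4, where 2 arrays against 5 separate more readily, and 277 to 526 higher and 229 to 402 lower with 1 array left out. Lists at 2 times the background, 6 on the higher side, were 11 after centring, 12 with the compared groups alone, 10 after quantile normalization, 16 without Met-fed arrays 1 and 4 and up to 11 with 1 array left out. On the lower side 12 became 6 by either t-test. The replicate numbers of the labels pair nothing here, since deviations of same-numbered arrays correlated at -0.09 to 0.08 and 0 of 4 Met-fed arrays were closest to the control array of their number. With the replicate block 741 were higher and 408 lower, 1 passed an adjusted p of 0.05 (Adh1c, -1.10, adjusted p = 0.00521) and 11 lists were past the limit on the higher side.

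Of 211 differences of named genes and their other probe sets at an unadjusted p under 0.05, 7 to 83 lost it under the planned settings, 73 of them without Met-fed array 1, and 124 with the spike-in covariate or 104 without Met-fed arrays 1 and 4. Timp1 and Tgfb2 changed sign without those arrays (-0.032 and -0.029). The cause of these shifts was not tested. Array number limits what can pass, and dim probe sets vary most.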

Other observations

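The 36 lists not described above lay nearer the background, with at most 14.3% of their genes on the higher and 8.93% on the lower side of control, by the same unadjusted threshold, and medians of -0.07 to 0.09. On the higher side the spliceosome had 11 of 79 well-measured genes and 3 lower, the nuclear pore 6 of 53 and none lower, ribosome assembly and nucleolus 5 of 46 and 2 lower, enzymes that methylate or demethylate DNA, RNA and histones 5 of 46 and none lower, TGF-beta and BMP signaling 5 of 36 and 1 lower, and cholesterol synthesis and uptake 3 of 21 and 1 lower. Leaving out Met-fed arrays 1 and 4, the higher share of the spliceosome was 3.8% and that of ribosome assembly 0, against a background of 4.49%.

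Genes of cytosolic ribosomal proteins (2 of 41 higher), mitochondrial ribosomal proteins (4 of 75 higher) and the interferon response (3 of 50 higher, 1 lower) were at or below the background share. Those of the lysosome had 2 of 35 higher (5.71%) and 2 lower (5.71%), against 7.37% and 5.36% of all genes. Fibrillar collagens and other matrix proteins had 4 of 56 higher and 5 lower, with the lowest median of these lists (-0.07). Leaving those arrays out, 14.3% of the matrix genes were lower, against 5.11% of all genes.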
